A study of Homo sapiens with 10 samples.

Results

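The genes described here are 48 genes of DNA replication origins and forks, taken by symbol from a table of 58302 gene IDs. The choice of genes was made with earlier results of these data known. They encode the origin recognition complex (ORC), the factors that load and activate the MCM2-7 helicase, the replicative DNA polymerases, the sliding clamp and its loader, the enzymes that join Okazaki fragments, the single-strand binding protein RPA, and the fork protection proteins. FAM111B, a protease gene, was the only member placed in no complex. All 48 symbols were found in the table. RNA had been sequenced from KYSE-410, an established human cell line from an esophageal squamous cell carcinoma, after 48 h with an inhibitor of SHIP2, a lipid phosphatase encoded by INPPL1. The comparison asks how transcript levels differ between inhibitor-treated and solvent-treated cells. In the first arm, 3 libraries came from cells given 2 µM K149 and 3 from cells given 0.1% DMSO, the solvent. In the second arm, 2 libraries came from cells given 20 µM AS1949490 and 2 from their own 0.1% DMSO controls.

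Each replication origin is prepared, or licensed, before DNA synthesis starts: ORC binds the origin, CDC6 and CDT1 join it, and the ring-shaped MCM2-7 helicase is loaded on the DNA in an inactive form. At the start of S phase the kinase CDC7 with its activator DBF4 switches the helicase on by recruiting CDC45 and the GINS complex, and polymerases, clamp and RPA assemble around it into a fork. Many of these genes are transcribed at the boundary of G1 and S phase under E2F transcription factors, which makes their transcript levels a common readout of proliferating cells.

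Values are in CPM, the reads of a gene scaled so that each library has the same total. The smallest step between values was about 0.05 CPM in every library. From these steps, and assuming that the authors scaled each library to a common total, a step recorded in no source used here, the libraries held 18.37 to 26.34 M reads. Replicates differed by more than counting error in every pair, with a chi-square per degree of freedom of 1.45 to 8.83, the highest between the DMSO libraries of the AS1949490 arm. Whether libraries of 1 group had separate cultures behind them is not stated, so the p-values below reflect the spread among these libraries alone, which may be technical. The 8 markers of squamous epithelium summed to 1072 to 1088 CPM in the DMSO libraries of the first arm, 1163 to 1268 CPM with K149, 778.9 to 840.4 CPM in the other DMSO libraries and 820.2 to 878.3 CPM with AS1949490, most of it from CDH1. TP63 stood at 66 to 126 CPM, and the basal keratins KRT5 and KRT14 were low (at most 9.04 and 1.15 CPM). Within the list, KRT5 and KRT17 fell with both inhibitors (log2 folds of -2.22 and -1.06 with K149, -0.52 and -1.04 with AS1949490), and DSG3 and CDH1 rose with both (0.69 and 0.33, then 1.54 and 0.31). TP63 and KRT6A fell with K149 (-0.31 and -0.73) and were not called with AS1949490 (0.31 and -0.52). KRT14 was called with neither inhibitor, and PKP1 stayed below 1 CPM. The part of these 8 markers in the results below was not tested. INPPL1 was higher in every treated library than in every control library of its arm: 119.5, 118 and 102 CPM in DMSO against 169.7, 166 and 185 CPM with K149, and 141 and 130.0 CPM in DMSO against 205 and 192 CPM with AS1949490. The drugs act on the protein, so this level does not check the labels.

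With K149, 47 of the 48 genes fell and 1, ORC4, rose. Summed over the 48 genes, the mean level was 4913 ± 16.8 CPM in DMSO (SD, n = 3) and 1147 ± 16.9 CPM with K149 (SD, n = 3), a 4.28-fold lower sum. As a share of all CPM, this was 0.491% in DMSO and 0.115% with K149. Among complexes, the summed loss was steepest in the genes that build the active helicase (CDC45, GINS and MCM10), with GINS3 an exception. The loss was large in MCM2-7, CDT1, CDC6, FEN1 and LIG1, smaller in RPA, and uneven inside ORC, the clamp loader and the polymerases. Calls rest on limma fitted on log2(CPM + 1) over 17837 genes with an adjusted p under 0.05, and each log2 fold below is on that scale, with its standard error (SE). Of all genes tested, 30.6% fell and 35.8% rose with K149 by the same rule, against 97.9% of the members that fell. The median log2 fold of the members was -2.49, with a range of -4.86 to 0.29, and that of all genes tested was 0.038. The limma adjusted p of the 47 that fell ran from 5.34e-16 to 0.000356, and in no member did the K149 and DMSO libraries overlap. Overlap was not counted over all genes tested, so the absence of overlap has no background to be read against. In RNA from bulk cultures, fewer cells in S phase and less RNA per cell cannot be told apart. All 48 genes passed the filter on low values (a mean of 1 CPM or more in some group), and did so in both DMSO groups. With K149, 46 did, and GINS2 and POLE2 were below it.

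**Figure D1:**
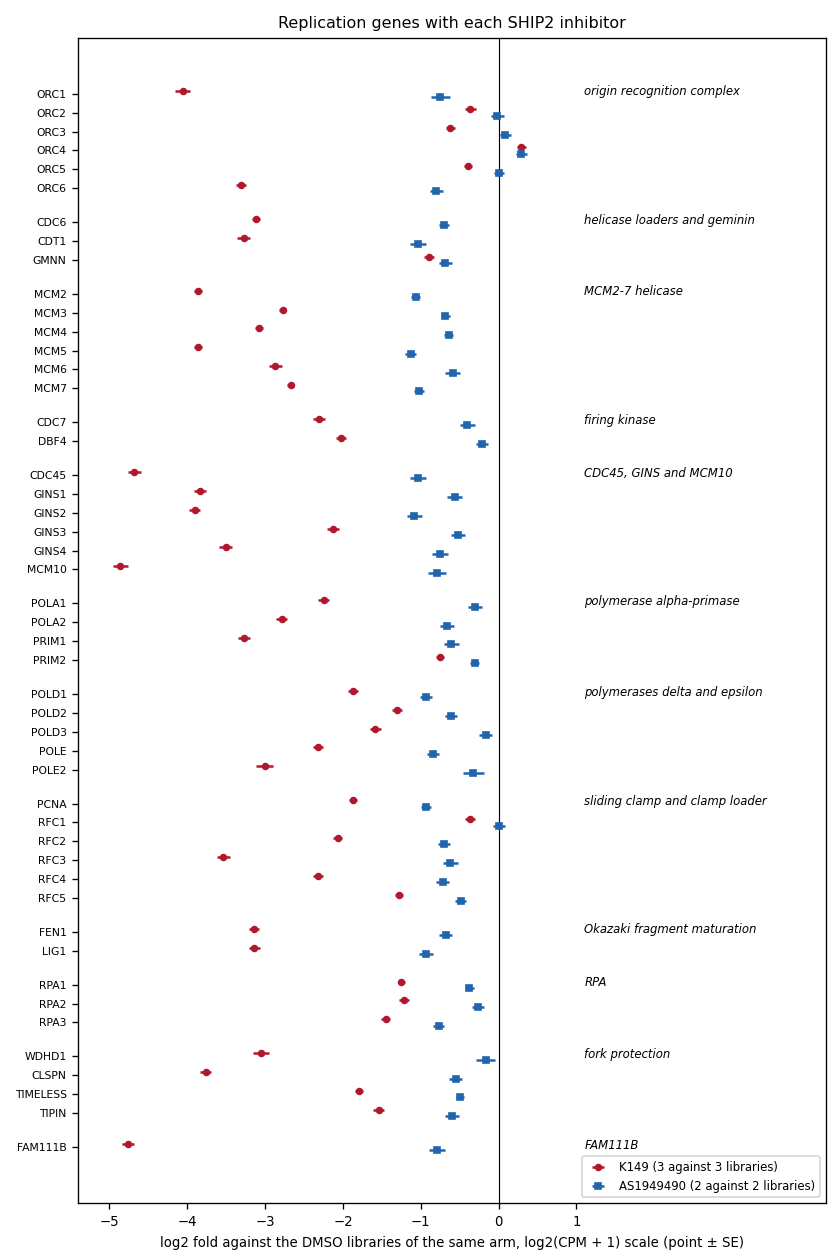
Log2 fold of each of the 48 genes (treated against the DMSO of the same arm, log2(CPM + 1) scale, horizontal axis), with rows grouped by complex, for K149 and AS1949490; bars show the SE of the limma fit. K149 values run from -4.86 (MCM10) to 0.29 (ORC4) and AS1949490 values from -1.13 (MCM5) to 0.29 (ORC4).

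The promoters of the members were examined for the words to which E2F factors are known to bind, since most members moved together. Windows of 300 bases, from 250 bases before to 50 bases after the annotated start, came from RefSeq on GRCh38.p14 and were matched by symbol for 41 of the 48 genes, 9 of which had more than 1 window. A gene was counted once, as holding a word if any of its windows did. The words TTTCCCGC, TTTCGCGC, TTTGCCGC and TTTGGCGC were searched on both strands, and words on opposite strands may overlap. At least 1 word was found for 21 of the 41 genes (51.2%), against 6.31% of the 10863 tested genes with a window and 3.99% of all 27305 genes with one. The stretches below cover 160 bases up to the start, on the strand of the gene. They were picked to show members of several complexes that fell with K149 and hold a word (CDT1, MCM6, MCM7, PCNA, RFC3), the 1 ORC gene with a word (ORC3), and the ORC genes at both ends of the response to K149, neither of which holds one (ORC1 and ORC4). Capitals mark the matched words.
CDT1, chr16:88803629-88803788, plus strand: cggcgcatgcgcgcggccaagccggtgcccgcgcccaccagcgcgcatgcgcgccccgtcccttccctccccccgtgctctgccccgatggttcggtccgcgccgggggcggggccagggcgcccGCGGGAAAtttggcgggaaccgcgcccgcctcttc
MCM6, chr2:135876444-135876603, minus strand: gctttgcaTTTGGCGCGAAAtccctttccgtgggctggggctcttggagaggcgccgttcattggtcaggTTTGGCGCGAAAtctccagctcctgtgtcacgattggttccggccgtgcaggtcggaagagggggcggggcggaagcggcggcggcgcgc
MCM7, chr7:100101398-100101557, minus strand: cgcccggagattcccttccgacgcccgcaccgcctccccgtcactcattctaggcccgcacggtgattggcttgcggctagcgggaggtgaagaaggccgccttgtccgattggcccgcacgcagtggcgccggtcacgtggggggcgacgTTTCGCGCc
PCNA, chr20:5126623-5126782, minus strand: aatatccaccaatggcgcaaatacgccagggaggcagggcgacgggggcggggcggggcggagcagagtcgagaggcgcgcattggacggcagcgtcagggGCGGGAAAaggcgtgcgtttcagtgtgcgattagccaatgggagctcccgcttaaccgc
RFC3, chr13:33817989-33818148, plus strand: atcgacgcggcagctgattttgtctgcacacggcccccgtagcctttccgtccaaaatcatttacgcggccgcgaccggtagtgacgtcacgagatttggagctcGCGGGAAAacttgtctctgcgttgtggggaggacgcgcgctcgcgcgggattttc
ORC3, chr6:87589975-87590134, plus strand: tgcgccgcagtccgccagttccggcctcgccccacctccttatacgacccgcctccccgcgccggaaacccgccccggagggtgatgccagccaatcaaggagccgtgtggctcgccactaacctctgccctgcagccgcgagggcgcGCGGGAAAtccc
ORC4, chr2:148021552-148021711, minus strand: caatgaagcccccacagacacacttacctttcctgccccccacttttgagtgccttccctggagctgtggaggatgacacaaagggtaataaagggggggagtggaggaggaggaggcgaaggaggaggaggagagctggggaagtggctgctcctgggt
ORC1, chr1:52404424-52404583, minus strand: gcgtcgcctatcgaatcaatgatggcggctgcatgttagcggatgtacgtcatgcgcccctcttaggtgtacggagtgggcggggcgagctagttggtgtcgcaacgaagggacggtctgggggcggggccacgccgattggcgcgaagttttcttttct
In MCM6 the capitals hold 4 words as 2 pairs that overlap on opposite strands, and MCM7 holds a further word upstream of the stretch shown. The word GCGGGAAA in CDT1, PCNA, RFC3 and ORC3 is TTTCCCGC read on the other strand. Every helicase loader or geminin gene (3 of 3) and every MCM2-7 gene with a window (4 of 4) held a word, while 1 of 6 ORC genes did. The folds of members with and without a word overlapped: with K149, members with a word had a median log2 fold of -2.79 (range -3.91 to -0.62) and those without had -1.95 (range -4.86 to 0.29). With AS1949490 the medians were -0.66 and -0.55. MCM10, CDC45 and ORC1, which had the 3 steepest falls among members with a window on the log2(CPM + 1) scale, held none of these exact words. On mean CPM, GINS2, which holds a word, fell 30.0-fold and ORC1 29.7-fold, so the place of ORC1 depends on the scale. The other words searched were CCAAT, the binding site of NF-Y, found for 58.5% of the members and 43.1% of tested genes with a window, and TTTGAA, the core of the cell cycle homology region of late cell cycle genes, found for 1 member (2.44%) and for 13.9% of tested genes with a window. A match describes letters in a window, and no binding was measured.

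ORC marks the origins, and its 6 genes split widely with K149: 5 fell and ORC4 rose. ORC1 (ENSG00000085840, chr1:52372829-52404459, minus strand), the subunit whose protein level is known to cycle in human cells, measured 34.2, 35.7 and 35.5 CPM in the DMSO libraries and 1.05, 0.95 and 1.55 CPM with K149, a mean 29.7-fold lower (log2 fold -4.06 ± 0.10, limma adjusted p = 2.22e-13). ORC4 (ENSG00000115947, chr2:147930397-148021604, minus strand), a core subunit, measured 43.3, 43.8 and 47.2 CPM in the DMSO libraries and 55.8, 55.7 and 53.3 CPM with K149 (log2 fold 0.29 ± 0.057, limma adjusted p = 0.000495). ORC1 with K149 rested on few reads per library, and a pseudocount of 5 gave it a log2 fold of -2.70. All 3 ORC1 values with K149 lay far below the controls, and all 3 ORC4 values lay just above theirs. ORC6, a subunit needed for loading the helicase, fell next most (38, 37 and 38.1 CPM in DMSO, 3.05, 2.85 and 2.8 CPM with K149, log2 fold -3.31 ± 0.065). The core subunits ORC2, ORC3 and ORC5 fell far less, with log2 folds of -0.36, -0.62 and -0.39.

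The helicase loaders fell together, and their inhibitor less. CDT1, which brings MCM2-7 to ORC, had the largest log2 fold of this group at -3.27 ± 0.081, with 39.1, 40.0 and 39.2 CPM in the DMSO libraries and 2.8, 3.75 and 3.05 CPM with K149. CDC6, the ATPase that works with it, was 9.2-fold lower on the means. GMNN encodes geminin, which binds CDT1 and blocks further loading, and it measured 55, 57 and 58.5 CPM in the DMSO libraries and 30.6, 30.1 and 29.6 CPM with K149 (log2 fold -0.90 ± 0.066, 1.89-fold lower). The groups of both CDT1 and GMNN were apart, by a wide gap in CDT1 and a narrower one in GMNN.

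All 6 genes of the MCM2-7 ring fell with K149, and together they made up the largest loss in CPM, from 1744 ± 9.1 in DMSO to 217 ± 5.72 with K149 (SD, n = 3 each). MCM2 had the largest log2 fold, -3.86 ± 0.048, with 153, 154 and 148 CPM in the DMSO libraries and 9.29, 9.7 and 9.44 CPM with K149. MCM7 had the smallest, -2.67 ± 0.05, with 530.2, 531 and 515 CPM in the DMSO libraries and 77.3, 87.6 and 80.2 CPM with K149. Neither gene's groups came near each other, and MCM4, MCM6 and MCM3 lay between, at -3.07, -2.87 and -2.78. MCM5 was level with MCM2, at -3.86 ± 0.055. On mean CPM MCM5 was 16.2-fold lower and MCM2 16.0-fold, so the order of these genes depends on the scale.

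**Figure D2:**
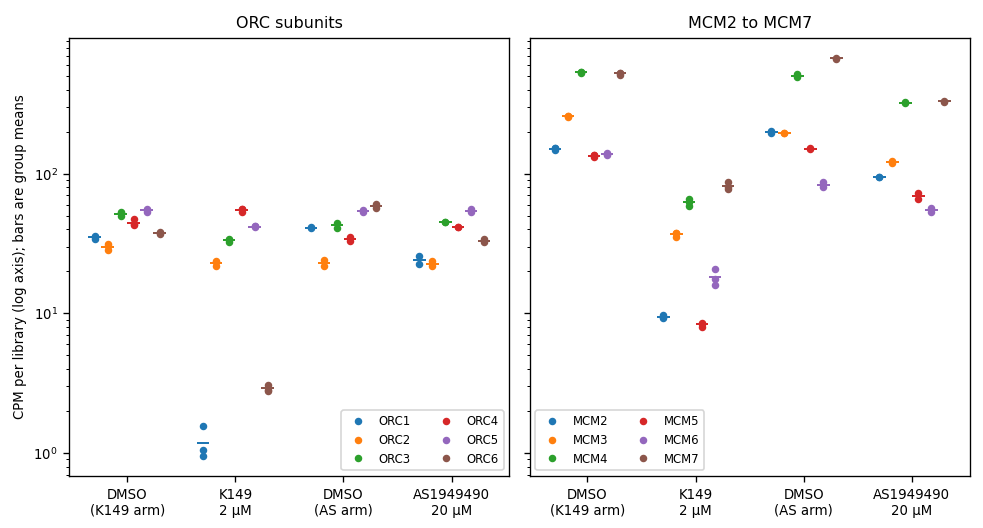
CPM of the ORC and MCM2-7 genes in each of the 10 libraries (points; log axis), by group; lines mark group means. ORC1 and ORC6 dropped with K149 while ORC4 stayed above its DMSO libraries, and all 6 MCM2-7 genes dropped with both inhibitors, further with K149.

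The kinase that fires origins fell in both subunits. The catalytic subunit CDC7 measured 43.3, 44 and 47.6 CPM in the DMSO libraries and 7.29, 8.6 and 9.04 CPM with K149 (log2 fold -2.31 ± 0.078), and its activator DBF4 measured 46.8, 52 and 49.5 CPM in the DMSO libraries and 11.8, 11.4 and 10.9 CPM with K149 (log2 fold -2.02 ± 0.064). Every treated library lay below every control.

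The steepest summed fall of any complex was in the genes that turn MCM2-7 into the running helicase. Their summed level was 346 ± 3.14 CPM in DMSO and 18.5 ± 1.22 CPM with K149, 18.7-fold lower. MCM10 (ENSG00000065328, chr10:13161554-13211104, plus strand), which is needed to activate the loaded helicase, measured 61.7, 62.9 and 61.2 CPM in the DMSO libraries and 0.949, 1.05 and 1.55 CPM with K149, 52.4-fold lower on the means (log2 fold -4.86 ± 0.10, limma adjusted p = 2.71e-14). CDC45, a helicase subunit, was 37-fold lower (log2 fold -4.68 ± 0.083), and GINS2 30.0-fold lower. The least affected was GINS3, with 21.3, 22.3 and 22.3 CPM in the DMSO libraries and 4.55, 3.95 and 4.29 CPM with K149 (log2 fold -2.13 ± 0.073). The other GINS genes, GINS1 and GINS4, had log2 folds of -3.84 and -3.51, so GINS3 stood apart from the 3 subunits it is bound to. GINS3 also fell less than any MCM2-7 gene. MCM10 with K149 rested on few reads per library, as did GINS2, whose mean was 0.933 CPM and whose log2 fold went from -3.91 to -2.47 with a pseudocount of 5. With that pseudocount MCM10 had -3.44 and CDC45 -3.56, so the first place of MCM10 depends on the setting.

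In the polymerase that starts new strands, polymerase alpha-primase, all 4 genes fell, and PRIM2 much less than the rest. PRIM1, the catalytic primase subunit, measured 36.3, 35.5 and 36 CPM in the DMSO libraries and 2.6, 3.2 and 2.75 CPM with K149 (log2 fold -3.27 ± 0.076, 12.6-fold lower). PRIM2, the large primase subunit, measured 194, 197 and 197 CPM in the DMSO libraries and 122, 116 and 109 CPM with K149 (log2 fold -0.76 ± 0.05, 1.7-fold lower). The 2 subunits of 1 primase thus differed in the size of their fall, although neither gene's groups overlapped. PRIM2 has a near-identical partial copy in the human genome, and its level is uncertain because reads may be split between them. POLA1, the catalytic polymerase subunit, had -2.25, and POLA2, its regulatory subunit, -2.79. POLA2 is uncertain too, since 35.1% of its exon bases overlap another gene, AP000944.2.

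All 5 genes of the polymerases that extend the strands fell. POLE2, an accessory subunit of the leading-strand polymerase epsilon, fell most, from 10.9, 11.7 and 10.7 CPM to 0.70, 0.55 and 0.30 CPM (log2 fold -3.01 ± 0.11, 21.5-fold lower on the means). POLD2, an accessory subunit of the lagging-strand polymerase delta, fell least, from 182, 187 and 182 CPM to 72.4, 81.3 and 68.1 CPM (log2 fold -1.31 ± 0.064). The catalytic subunits POLE and POLD1 had -2.32 and -1.87, and the accessory POLD3 had -1.59. With a pseudocount of 5 the log2 fold of POLE2 was -1.55, a smaller fall than the -2.07 of POLE and the -1.702 of POLD1, so its place among these genes depends on that setting.

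PCNA, the ring that tethers polymerases to DNA, fell to 26.9% of its control mean (log2 fold -1.87 ± 0.052). Its loader, replication factor C, spread widely. RFC3, a small subunit, measured 54.9, 54 and 54.9 CPM in the DMSO libraries and 3.75, 3.6 and 4.05 CPM with K149 (log2 fold -3.54 ± 0.08). RFC1, the large subunit, measured 74.8, 75.6 and 76.8 CPM in the DMSO libraries and 60.2, 52.8 and 62.6 CPM with K149 (log2 fold -0.37 ± 0.067, limma adjusted p = 0.000252). RFC3 stood far below its controls in every treated library, while RFC1 moved by less than any other member that fell except ORC2. RFC4, RFC2 and RFC5, the other small subunits, had log2 folds of -2.32, -2.07 and -1.28.

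FEN1, the nuclease that trims the flaps of Okazaki fragments, and LIG1, the ligase that seals them, fell by nearly the same log2 fold, -3.14 ± 0.068 and -3.14 ± 0.071. FEN1 measured 106, 109 and 112 CPM in the DMSO libraries and 11.1, 12.7 and 10.6 CPM with K149. LIG1 measured 77.1, 79.2 and 72.4 CPM in the DMSO libraries and 6.95, 8.2 and 8.24 CPM with K149. The libraries of both genes were far apart by group. The 3 genes of RPA, which coats single-stranded DNA at forks and in repair, fell less and evenly: RPA3 had the largest log2 fold, -1.45 ± 0.06, with 109.6, 115 and 115 CPM in the DMSO libraries and 39.1, 44.5 and 38.8 CPM with K149. RPA2 had the smallest, -1.22 ± 0.061, with 55.1, 53.8 and 54.4 CPM in the DMSO libraries and 23.4, 23.5 and 21.6 CPM with K149, and RPA1 had -1.25. The RPA genes kept 40.2% of their summed control level, against 10.4% for FEN1 and LIG1.

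Among fork protection genes, CLSPN, the claspin gene that carries the checkpoint signal from ATR to CHK1, fell most: it measured 54, 51.3 and 51.4 CPM in the DMSO libraries and 3.00, 2.9 and 2.85 CPM with K149 (log2 fold -3.76 ± 0.066). TIPIN, the partner of TIMELESS in the complex that keeps helicase and polymerase coupled, fell least, from 23, 22.8 and 20.8 CPM to 7.39, 6.8 and 6.74 CPM (log2 fold -1.54 ± 0.075). The partner genes TIMELESS and TIPIN stayed close, with TIMELESS at -1.79, and WDHD1, which links helicase and polymerase alpha, had -3.05. FAM111B measured 61.5, 63.9 and 63.8 CPM in the DMSO libraries and 1.35, 1.15 and 1.6 CPM with K149, 46.2-fold lower. This was the second steepest fall of the 48 genes after MCM10 on this scale, and like it a ratio that rests on few treated reads. With a pseudocount of 5 the log2 fold of FAM111B was -3.42, a smaller fall than the -3.56 of CDC45, so its place depends on that setting.

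AS1949490 lowered most of the same genes by a smaller amount: 40 fell, 1 (ORC4) rose and 7 were not called. The summed level was 5098 ± 35.4 CPM in DMSO (SD, n = 2) and 3194 ± 14.1 CPM with the inhibitor (SD, n = 2), 1.6-fold lower. Of all genes tested, 19.5% fell and 32.1% rose with AS1949490, against 83.3% of the members that fell. The members' median log2 fold was -0.63, against 0.079 over all genes tested. The limma adjusted p of the 40 ran from 5.16e-08 to 0.0336. The 7 without a call were ORC2, ORC3, ORC5, POLD3, POLE2, RFC1 and WDHD1, and in 4 of these (ORC2, ORC5, RFC1 and WDHD1) treated and control libraries overlapped. In this arm, too, overlap was not counted over all genes tested. The call of DBF4 was lost without any 1 of the 4 libraries of the arm (limma adjusted p = 0.0568 to 0.196), that of POLA1 without DMSO replicate 2 or AS1949490 replicate 2 (limma adjusted p = 0.0622 and 0.0603), and that of RPA2 without DMSO replicate 1 or AS1949490 replicate 1 (limma adjusted p = 0.0866 and 0.0635).

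In ORC, AS1949490 lowered ORC6 and ORC1, raised ORC4 and left ORC2, ORC3 and ORC5 without a call. ORC6 measured 56.9 and 60.5 CPM in the DMSO libraries and 33.9 and 32.6 CPM with AS1949490 (log2 fold -0.80 ± 0.08, limma adjusted p = 4.85e-06). ORC5 had the smallest value, 0.01 ± 0.063, with 55.3 and 52.9 CPM in the DMSO libraries and 53.2 and 55.7 CPM with AS1949490, and its sign changed with the scaling. ORC3 had 0.09 ± 0.069, with 44.4 and 41.2 CPM in the DMSO libraries and 45.5 and 45.5 CPM with AS1949490, a positive value where K149 gave a fall. ORC6 groups were well apart, those of ORC5 overlapped, and those of ORC3 were apart by a narrow margin without a call (limma adjusted p = 0.315). ORC4 again rose, from 32.8 and 35.2 CPM to 41.9 and 41.8 CPM (log2 fold 0.29 ± 0.07, limma adjusted p = 0.00343). Its mean with the inhibitor was 123% of control in both arms.

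All loaders and MCM2-7 genes fell with AS1949490. CDT1 had the largest log2 fold among the loaders, -1.03 ± 0.10, with 74.3 and 68.4 CPM in the DMSO libraries and 34.4 and 34.2 CPM with AS1949490. GMNN had the smallest, -0.68 ± 0.08, with 56.1 and 47 CPM in the DMSO libraries and 31.6 and 31.6 CPM with AS1949490. The difference between CDT1 and GMNN in this arm was smaller than with K149, and both genes' libraries were apart. MCM5 had the largest log2 fold of all members, -1.13 ± 0.067, with 152 and 151 CPM in the DMSO libraries and 72.3 and 65.5 CPM with AS1949490, a 2.2-fold lower mean (limma adjusted p = 9.62e-08). MCM6 had the smallest in the ring, -0.59 ± 0.10, with 80.2 and 86.8 CPM in the DMSO libraries and 56.6 and 53.6 CPM with AS1949490. The MCM2-7 sum was 1811 ± 14.8 CPM in DMSO and 994 ± 11.5 CPM with AS1949490 (SD, n = 2 each), so 54.9% was left, against 12.5% with K149.

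GINS2 had the largest log2 fold among the helicase activators, -1.08 ± 0.092, with 28.6 and 28.5 CPM in the DMSO libraries and 12.4 and 13.5 CPM with AS1949490. GINS3 had the smallest, -0.53 ± 0.09, with 31 and 29.3 CPM in the DMSO libraries and 21.1 and 20.2 CPM with AS1949490. All 6 activator genes fell, and the libraries of GINS2 and GINS3 were apart. CDC7 fell to 74.8% of its control mean (30.9 and 31.4 CPM in the DMSO libraries and 23.6 and 23 CPM with AS1949490, log2 fold -0.40 ± 0.10), and DBF4 to 85.6% (35.8 and 37 CPM in the DMSO libraries and 30.2 and 32.1 CPM with AS1949490, log2 fold -0.22 ± 0.079), with a gap between groups that was small for both.

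Among the polymerase genes, POLD1 had the largest log2 fold of the delta and epsilon subunits, -0.93 ± 0.082, with 145 and 135 CPM in the DMSO libraries and 76.4 and 69.4 CPM with AS1949490. POLD3 had the smallest, -0.17 ± 0.088, with 32.3 and 34.8 CPM in the DMSO libraries and 30.2 and 29.2 CPM with AS1949490, and was not called (limma adjusted p = 0.125). The groups of both genes were apart, by a wide margin only in POLD1. In polymerase alpha-primase, POLA2 (uncertain, as above) had -0.66 ± 0.086, with 57.8 and 52.9 CPM in the DMSO libraries and 33.9 and 35.2 CPM with AS1949490. POLA1 had -0.30 ± 0.088, with 31.4 and 34.1 CPM in the DMSO libraries and 26.6 and 26.1 CPM with AS1949490. All 4 genes of this complex were called as lower, PRIM2 at -0.31 and PRIM1 at -0.61.

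PCNA had the largest log2 fold of the clamp and clamp loader, -0.93 ± 0.064, with 153 and 150.3 CPM in the DMSO libraries and 78.6 and 79.5 CPM with AS1949490. RFC1 had the smallest, 0.01 ± 0.082, with 64.1 and 72.5 CPM in the DMSO libraries and 69.2 and 67.7 CPM with AS1949490. PCNA was well below its controls, while RFC1 overlapped them, and its sign changed with the scaling. LIG1 and FEN1 had log2 folds of -0.93 ± 0.087 and -0.68 ± 0.083, with 67.4 and 62.8 CPM in the DMSO libraries and 33.6 and 33.5 CPM with AS1949490 for LIG1. FEN1 measured 134 and 121 CPM in the DMSO libraries and 77.2 and 81.4 CPM with AS1949490. RPA3 had the largest log2 fold in RPA, -0.77 ± 0.074, and RPA2 the smallest, -0.26 ± 0.075. RPA3 measured 100.4 and 93.6 CPM in the DMSO libraries and 55.9 and 57 CPM with AS1949490, and RPA2 measured 56.5 and 50.3 CPM in the DMSO libraries and 43.7 and 44.8 CPM with AS1949490. In both LIG1 and RPA3 the treated libraries were clearly lower, and in RPA2 by a small step.

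TIPIN had the largest log2 fold of the fork protection genes with AS1949490, -0.60 ± 0.092, with 27.7 and 25.1 CPM in the DMSO libraries and 16.7 and 17.4 CPM with AS1949490. WDHD1 had the smallest, -0.17 ± 0.12, with 37.9 and 46.1 CPM in the DMSO libraries and 38.1 and 36.2 CPM with AS1949490 (limma adjusted p = 0.274). CLSPN had -0.55 ± 0.081 and TIMELESS -0.50 ± 0.0555. Thus TIPIN, the least affected of the 4 with K149, stood first here, but its lead over CLSPN was smaller than either SE. WDHD1, which K149 lowered 9.56-fold, overlapped its controls. FAM111B measured 44.1 and 49.6 CPM in the DMSO libraries and 26.5 and 26.6 CPM with AS1949490 (log2 fold -0.79 ± 0.10).

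The effects of the inhibitors were then set against each other, each relative to its own DMSO. The doses, 2 µM and 20 µM, differ, so the difference compares these treatments and not the compounds at a matched dose. The fall was larger with K149 in 46 of 48 genes by a limma test of the difference of effects, which called 25.3% of all genes as lower and 15.1% as higher with K149. No member was called in the other direction. The widest differences were those of MCM10 (-4.06 ± 0.15), FAM111B (-3.97 ± 0.13) and CDC45 (-3.64 ± 0.13), in log2 units. The 2 genes without a called difference were ORC4, at -0.001 ± 0.09 (limma adjusted p = 0.992), and GMNN, at -0.21 ± 0.10 (limma adjusted p = 0.12). With these SEs and a p above the threshold, the GMNN effects are not shown to be alike. Across the 48 genes the log2 folds of the arms, which share no libraries, had a Pearson r of 0.69 and a Spearman rho of 0.65. Over all genes tested, the values were 0.54 and 0.56. These correlations run across genes, which are not independent replicates. On the log2(CPM + 1) scale the first 5 with K149 were MCM10, FAM111B, CDC45, ORC1 and GINS2. With AS1949490 the first 5 were MCM5, GINS2, MCM2, CDC45 and CDT1. CDC45 and GINS2 were thus in both, and MCM2 and MCM5 held places 6 and 7 with K149. The log2 folds of the 48 genes had an SD of 1.26 with K149 and 0.335 with AS1949490.

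**Figure D3:**
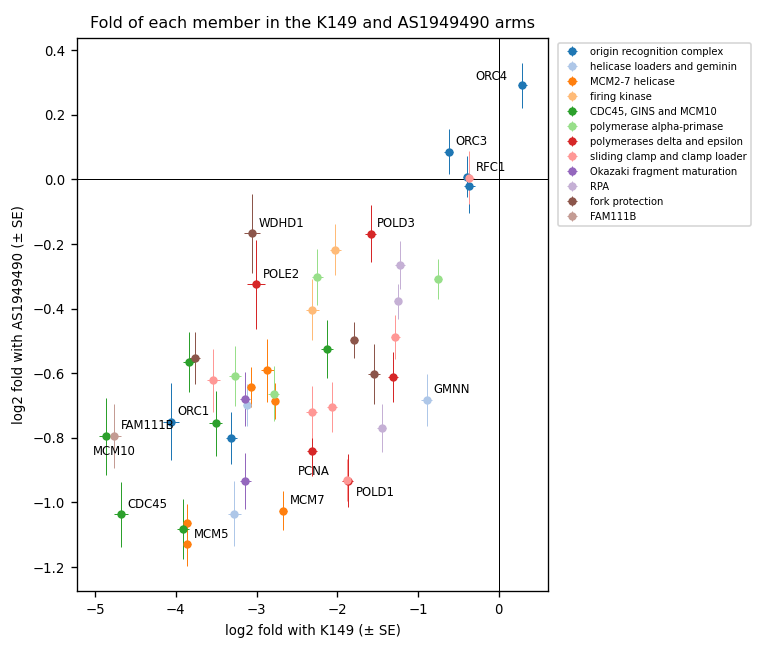
Log2 fold with AS1949490 (vertical axis) against log2 fold with K149 (horizontal axis) for each of the 48 genes, on the log2(CPM + 1) scale. Members lie on the side of a larger fall with K149, ORC4 lies at 0.29 on both axes, and GMNN at -0.90 with K149 and -0.68 with AS1949490.

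Because the genes of a complex fell unevenly, the make-up of some complexes at the transcript level differed between groups, as a description with no test. Levels of different genes were compared as CPM per kilobase of exon, and each gene is given as a share of its complex (mean ± SD over libraries). The length counts every base in any annotated exon of a gene, which can exceed that of the transcripts present. Shares and ratios between genes carry this limit. In ORC, ORC1 went from 18.9% ± 0.157 in DMSO to 1.19% ± 0.332 with K149, and ORC6 from 14.9% ± 0.404 to 2.14% ± 0.0688. ORC4 went from 8.53% ± 0.319 to 19.6% ± 0.418. ORC5 was the highest ORC gene in each of the 4 groups, and the ratio of the highest to the lowest ORC gene was 2.94 in DMSO and 29.96 with K149. With AS1949490, ORC1 went from 21.5% ± 0.408 to 15% ± 1.13, with a ratio of highest to lowest of 3.81 in DMSO and 3.75 with the inhibitor. In polymerase alpha-primase, PRIM2 (uncertain, as above) made up 57.8% ± 0.343 in DMSO and 87% ± 0.72 with K149. In the clamp loader, RFC1 went from 9.53% ± 0.0742 to 26.2% ± 2.5 and RFC3 from 16.1% ± 0.311 to 3.97% ± 0.264. The MCM2-7 ring, whose subunits are present once each, kept its leading gene: MCM7 was the highest in each group, with 34.2% ± 0.404 in DMSO and 41.1% ± 1.28 with K149, and MCM5 went from 5.25% ± 0.0765 to 2.52% ± 0.159. In RPA the shares lay closer, with RPA1 at 41.9% ± 0.363 and 43.8% ± 1.71. These shares describe transcripts, not assembled complexes.

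**Figure D4:**
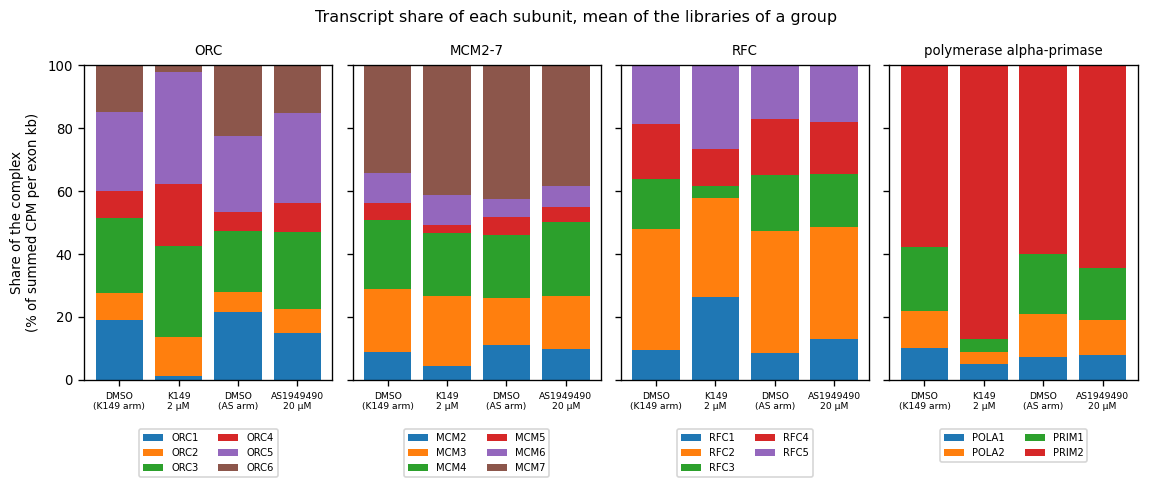
Share of each gene in the summed CPM per kilobase of exon of its complex (vertical axis, percent), by group. Panels are ORC, MCM2-7, the RFC clamp loader and polymerase alpha-primase, and each stacked bar is the mean of a group. With K149 the shares of ORC1, ORC6, PRIM1 and RFC3 shrink and those of ORC4, PRIM2 and RFC1 grow.

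The DMSO controls of the arms were not alike. Of the 48 genes, 14 were lower and 16 higher in the K149-arm controls than in the AS1949490-arm controls, which is 29.2% and 33.3% of the members. Over all genes tested, 29.1% were lower and 37.1% higher, so these shares are near the background. MCM6 was highest in the K149-arm controls relative to the others (139, 140.1 and 136 CPM against 80.2 and 86.8 CPM, log2 difference 0.72 ± 0.088). POLE was lowest (87.2, 81.7 and 76.8 CPM against 152 and 154 CPM, log2 difference -0.89 ± 0.071). The libraries of these genes did not overlap between the control groups. The summed level of 6 fibroblast markers also differed between these controls, at 230.1 to 242.4 CPM and 38.72 to 43.68 CPM. LUM, a matrix gene of fibroblasts, gave most of the first sum (217, 229.8 and 217.9 CPM) and 13.0 and 15.3 CPM of the second. COL1A1 was lower in the K149-arm controls, at a mean of 10.6 CPM against 25.4 CPM (log2 difference -1.18 ± 0.095). DCN was higher there (log2 difference 0.69 ± 0.15), and COL1A2, COL3A1 and PDGFRA stayed below 1 CPM. The difference in the sum is thus that of LUM and not of the list as a whole. The part of LUM in the member differences was not tested, and arm and handling cannot be told apart. With the inhibitors the sum was 257.0 to 274.8 CPM (K149) and 44.92 to 45.97 CPM (AS1949490). LUM rose with K149 (log2 fold 0.19 ± 0.06) and with AS1949490 (24.4 and 25.7 CPM, log2 fold 0.78 ± 0.074), and with AS1949490 COL1A1 fell (23.4 and 27.3 CPM in DMSO, 18.5 and 18.7 CPM treated, log2 fold -0.42 ± 0.10). Of the 5 immune markers, CD68 alone reached 1 CPM. Its mean was 19.7 CPM in the DMSO libraries of the first arm and 11.7 CPM in those of the second. It rose with K149 (log2 fold 0.26 ± 0.077) and with AS1949490 (log2 fold 0.77 ± 0.094). CD68 is uncertain, since 85.8% of its exon bases overlap another gene, AC016876.2. CD3E was at 0 in 3 of the 4 groups. The part of these markers in the member results was not tested. The difference of effects uses both control groups, so it carries their differences.

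Other genes of the replication pathway were listed by role. Of 43 genes listed, 42 were tested (the RPA2 relative RPA4 was too low); with K149, 35 fell and 4 rose, with a median log2 fold of -1.08, and with AS1949490, 25 fell and 5 rose, with a median of -0.37. Of all genes tested, 30.6% fell and 35.8% rose with K149, and 19.5% fell and 32.1% rose with AS1949490. Among origin firing factors all 6 fell with K149: TICRR, which recruits CDC45, had -3.05 ± 0.075, DBF4B, a relative of DBF4, -2.70 ± 0.087, and DONSON, a GINS-loading factor, the smallest fall, -0.61 ± 0.051. Among 7 genes of licensing control, 5 fell and 1 rose. DTL, the adaptor that targets CDT1 for destruction, had -4.24 ± 0.10, with 45.9, 42.3 and 39.9 CPM in the DMSO libraries and 1.05, 1.65 and 1.25 CPM with K149. FBXO5, an inhibitor of the anaphase-promoting complex, had -2.64 ± 0.086. LRWD1, an ORC-associated chromatin protein, rose (0.42 ± 0.067), with 35.7, 38.2 and 39.5 CPM in the DMSO libraries and 46.2, 54.8 and 51.5 CPM with K149, and fell with AS1949490 (-0.22 ± 0.082). DTL thus lay far below its controls, while the LRWD1 libraries lay above their controls.

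The small polymerase subunits moved in opposite directions with K149. POLE3 and POLE4 had -1.04 ± 0.047 and -0.21 ± 0.087, both called as lower. The POLE4 call was close to the threshold (limma adjusted p = 0.0428). Its libraries overlapped, at 49.5, 50.4 and 50.9 CPM in DMSO and 40.7, 50.1 and 39.5 CPM with K149. POLD4, the smallest subunit of polymerase delta, rose (0.85 ± 0.08), with 89.3, 88.9 and 87 CPM in the DMSO libraries and 150.3, 182 and 149.04 CPM with K149, with no overlap, and it rose with AS1949490 too (0.35 ± 0.10). Of 5 genes of alternative clamp loaders, 4 fell: DSCC1, of the loader that serves sister chromatid cohesion, had -3.88 ± 0.063 and ATAD5, which unloads PCNA, -2.61 ± 0.14. RAD17, which loads the checkpoint clamp, rose (0.28 ± 0.053). Among paralogs of members, MCM8 and FAM111A fell (-2.46 ± 0.061 and -0.89 ± 0.05), while MCM9, the partner of MCM8 in recombination, rose (0.24 ± 0.10). The MCM8 libraries were far below their controls, and those of MCM9 just above.

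Of 7 chromatin assembly genes, 6 fell with K149. ASF1B, a histone chaperone of proliferating cells, had -4.10 ± 0.061 and UHRF1, which maintains DNA methylation behind forks, -3.82 ± 0.10. The paralog ASF1A had 0.05 ± 0.057 and was not called. All 6 genes of primer removal and topology fell, from TOP2A, the topoisomerase of dividing cells (-4.36 ± 0.09), and RNASEH2A, a ribonuclease subunit that removes RNA from DNA (-2.83 ± 0.11, uncertain because 30.8% of its exon bases overlap another gene), to TOP1 (-0.16 ± 0.056). In the replication checkpoint 3 of 4 fell: CHEK1, the effector kinase, had -2.29 ± 0.077 and ATRIP -1.08 ± 0.08 (uncertain, with 27.9% of its exon bases shared), while the sensor kinase ATR had -0.14 ± 0.08 and was not called. TOP2A fell 21.4-fold with K149 but was not called with AS1949490 (-0.22 ± 0.11).

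Polymerases that work in repair, in lesion bypass or in mitochondria had a median log2 fold smaller in size than the replicative ones among the members. This is a description with no test between lists. Of 14 such genes, 6 fell and 3 rose with K149, with a median log2 fold of 0.004, against 0.038 for all genes. The medians were -2.52 for polymerase alpha-primase, -1.87 for polymerases delta and epsilon and -2.49 for the 48 members. These lists leave out the small subunits POLD4, POLE3 and POLE4. On the log2(CPM + 1) scale POLQ fell further than any replicative polymerase gene among the members, POLE2 (-3.01) included. On mean CPM POLE2 fell 21.5-fold, further than POLQ, so this order depends on the scale. With AS1949490, 3 fell and 6 rose, with a median of 0.089. Over all genes tested, 30.6% fell and 35.8% rose with K149, and 19.5% fell and 32.1% rose with AS1949490, so with AS1949490 the counts of the 14 are near the background. POLQ, the polymerase of microhomology-mediated end joining, had the largest fall with K149 (-3.75 ± 0.091), with 40.7, 38.2 and 39.8 CPM in the DMSO libraries and 2.4, 1.9 and 1.8 CPM with K149. PRIMPOL, a primase-polymerase that restarts stalled forks, was next (-1.22 ± 0.069). POLI, a lesion-bypass polymerase, had the largest rise (0.60 ± 0.087), with 13.7, 12.7 and 11.5 CPM in the DMSO libraries and 20.7, 19.5 and 18.4 CPM with K149. Thus POLQ alone of the 14 fell into the range of the MCM2-7 genes.

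**Figure D5:**
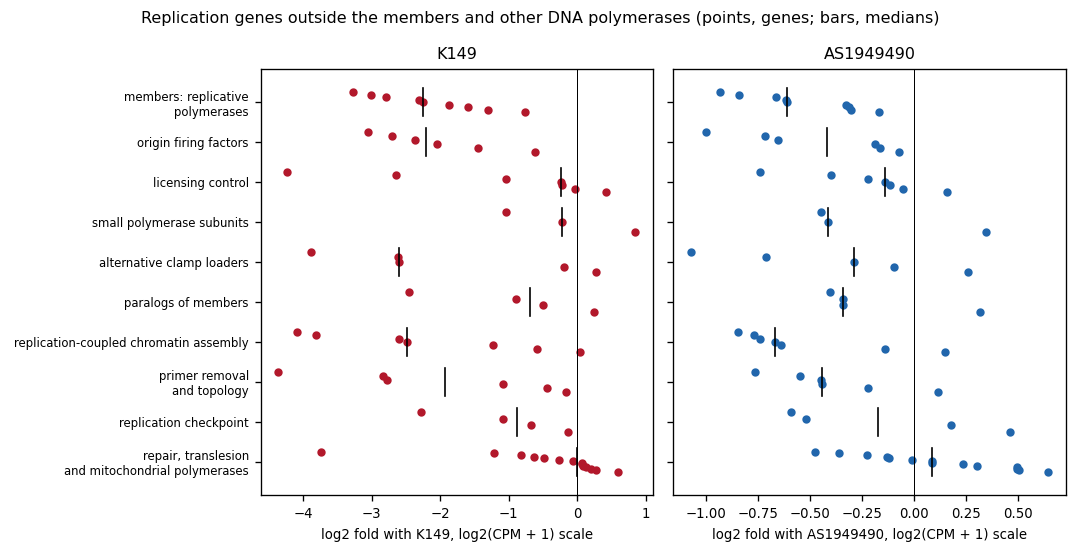
Log2 fold (log2(CPM + 1) scale, horizontal axis) with K149 and AS1949490 for the replicative polymerases among the 48 genes (top), the tested replication genes outside the 48, and 14 other polymerases, grouped by role. Points are genes and vertical bars medians: with K149 the polymerases of repair, lesion bypass and mitochondria have a median of 0.004, TOP2A, DTL and ASF1B lie farthest to the left and POLD4 farthest to the right.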

How the data were processed

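Per the labels' protocols, total RNA was extracted with on-column DNase digestion and the Ovation Solo kit was used for the libraries. The submitters' processing notes name STAR 2.5.3a, HTSeq and the hg38 build. How HTSeq counted, with which annotation and strand, was not given in the sources used here. For 58302 gene IDs the authors deposited CPM, which are scaled values and not read counts. Below 20 CPM, 100.0% of values lay within 0.05 of a whole multiple of 1 step, so reads could be recovered by inference; edgeR 4.0.16 on these called 11811 genes with K149 and 9204 with AS1949490, against 11837 and 9205 by limma.

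Limma 3.58.1 (R 4.3.3, mean-variance trend) was fitted on log2(CPM + 1) with 10 libraries and 4 group means, over 17837 genes whose mean reached 1 CPM in some group, with Benjamini-Hochberg adjustment over all of them. The scale understates folds of low genes. Exon lengths and overlaps came from GENCODE 29, to which 58039 IDs were matched; a gene with at least 25% of its exon bases shared is called uncertain. Libraries were grouped by their titles, or by the library name where the title gave no arm. Values in every library are printed for the genes with the largest and smallest fold of each complex in each arm and for genes whose direction differed, and for other lists the 2 largest falls and the largest rise (or smallest fall) with K149. The members and lists were chosen with earlier results of these data known. Alternatives were other pseudocounts, filters, scalings, models and leaving out each library.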

Additional observations from a re-analysis of the deposited data

Results flagged for a closer look

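For 46 of the 48 genes the limma test of the difference of effects (K149 effect minus AS1949490 effect, in log2 units, adjusted p under 0.05) found a larger fall with 2 µM K149 than with 20 µM AS1949490. The doses differ, and the control groups differ too, which may enter each value; neither part was tested. In ORC the differences were -3.31 for ORC1, -0.35 for ORC2, -0.71 for ORC3, -0.40 for ORC5 and -2.51 for ORC6. Among the loaders they were -2.42 for CDC6 and -2.24 for CDT1. The MCM2-7 genes gave -2.802 for MCM2, -2.09 for MCM3, -2.43 for MCM4, -2.73 for MCM5, -2.28 for MCM6 and -1.65 for MCM7. The firing kinase gave -1.90 for CDC7 and -1.80 for DBF4. The helicase activators gave -3.64 for CDC45, -3.27 for GINS1, -2.82 for GINS2, -1.60 for GINS3, -2.75 for GINS4 and -4.06 for MCM10. Polymerase alpha-primase gave -1.95 for POLA1, -2.12 for POLA2, -2.66 for PRIM1 and -0.45 for PRIM2, where POLA2 and PRIM2 are uncertain. Polymerases delta and epsilon gave -0.94 for POLD1, -0.69 for POLD2, -1.42 for POLD3, -1.48 for POLE and -2.68 for POLE2. The clamp and its loader gave -0.94 for PCNA, -0.38 for RFC1, -1.36 for RFC2, -2.91 for RFC3, -1.60 for RFC4 and -0.79 for RFC5. The Okazaki fragment genes gave -2.46 for FEN1 and -2.20 for LIG1. RPA gave -0.87 for RPA1, -0.95 for RPA2 and -0.68 for RPA3. The fork protection genes gave -2.88 for WDHD1, -3.21 for CLSPN, -1.30 for TIMELESS and -0.94 for TIPIN, and FAM111B gave -3.97.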

How the results depend on the processing

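Across 20 alternatives (pseudocounts of 0.5 and 5, no filter and a filter of 5 CPM, median-of-ratios scaling, limma without a trend, edgeR on recovered reads, arms fitted separately, replicate blocks and each library left out), the count that fell with K149 was 47 in every one. With AS1949490 it was 38 to 43 (38 to 41 with a library left out), and 45 to 47 genes had a larger fall with K149. In the controls, 12 to 18 members were lower and 11 to 18 higher. All 48 members with K149 and 42 of 48 with AS1949490 stayed on the same side of the threshold throughout. Of the genes not called with AS1949490, 3 changed sign, uncalled throughout. ORC5 turned to a log2 fold of -0.077 under median-of-ratios scaling and -0.076 by edgeR, and RFC1 to -0.080 and -0.084; the cause was not tested. With 1 library left out, ORC2 ranged from -0.081 to 0.042, ORC5 from -0.023 to 0.040 and RFC1 from -0.082 to 0.092. The call of DBF4 was also lost with the replicate block and with arms fitted separately (limma adjusted p = 0.0678 and 0.0701), while POLE2, POLD3 and WDHD1 were called as lower by edgeR (edgeR adjusted p = 0.0255, 0.0181 and 0.0476). Libraries with the same number in their titles did not deviate together in the K149 arm (r = 0.101, 0.046 and -0.012). In the AS1949490 arm the library names carry other numbers than the titles. There r was -0.242, and 0.242 with the numbers crossed. With 2 libraries per group these values mirror each other by construction, so they cannot judge pairing. The numbers were not taken as pairs. With the replicate block 47 genes fell with K149 and 39 with AS1949490. The calls over all genes went from 11837 to 11479 and from 9205 to 8579. With the numbers crossed in the AS1949490 arm, a choice made after seeing the data, 47 and 41 members fell. At steps of about 0.05 CPM, ORC1, MCM10, FAM111B, GINS2 and POLE2 with K149 rest on few reads, which limits the precision of their ratios.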
